A study of Rattus norvegicus with 3 samples.

Results

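The choroid plexus epithelium genes described here are Ttr, Kl, Slc4a5, Folr1, Aqp1, Clic6, Enpp2, Otx2, Prlr and Sostdc1, which are 10 of the 38973 genes measured. They are known markers of this epithelium, and the group was selected on log2 ratios of such markers between the same 3 arrays that are described here. The ratios below are therefore a description and were not tested. Male Wistar rats aged 9 weeks underwent transient occlusion of the right middle cerebral artery (MCAO) or a sham operation, and the cerebellar cortex was taken 2 days afterwards. The contralateral sample was the left and the ipsilateral sample the right cerebellar cortex of the MCAO group, and the control sample was the left cerebellar cortex of the sham-operated rats. Each sample was RNA from the combined tissue of 4 rats, with the tissue of both sides coming from the same animals. Each was hybridised to 1 array, so there were no replicates. The right cerebellar cortex of sham-operated rats was not analysed here, so the ipsilateral side was compared with the left side of the control group.

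The choroid plexus is a vascular fold in the brain ventricles that is covered by a secretory epithelium. This epithelium produces cerebrospinal fluid, forms the barrier between blood and cerebrospinal fluid, and releases carrier proteins and growth factors into the fluid. The hindbrain choroid plexus hangs from the roof of the fourth ventricle, directly beneath the cerebellum. It is not a layer of the cerebellar cortex, whose main cells are granule cells, Purkinje cells and Bergmann glia.

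The arrays were 1-colour microarrays, in which Cy3-labelled RNA gives each spot a fluorescence intensity. Values below are log2 signals after each array was scaled to the same 75th percentile, and a log2 ratio is the difference of these signals between 2 arrays. Beside a ratio stands the error that the scanner software gives, which covers neither the variation between rats nor that between hybridisations. A gene was past the threshold at a log2 ratio above 1 or below -1. Elsewhere, higher and lower give the sign of a ratio only. The 10 genes were read by 13 probes with 33 spots, of which 32 were used. A gene is called fully detected here when all its probes were well above background on each array, which held for 8 of the 10 genes, and Kl and Prlr were the exceptions.

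The tissue carried the markers of cerebellar cortex on every array. All 12 granule cell genes and all 11 Purkinje cell genes on the array were fully detected, and their median log2 ratios between the ipsilateral and contralateral sides were -0.08 and -0.02. Cbln1, a granule cell secreted synaptic organiser and the brightest of the granule cell list, had log2 signals of 15.34, 15.35 and 15.43 in the contralateral, ipsilateral and control samples.

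Ttr encodes transthyretin, the carrier of thyroid hormone and of retinol-binding protein that the choroid plexus epithelium secretes into cerebrospinal fluid. Its log2 signal was 13.27 in the contralateral cortex, 16.20 in the ipsilateral cortex and 15.01 in the control group. These are processed intensities of 10454, 60976 and 38632 before scaling. The contralateral side was thus the lowest and the ipsilateral side the highest, with the control group between them. The log2 ratio to the control group was -1.73 ± 0.20 (scanner error) contralaterally and 1.19 ± 0.20 ipsilaterally, and between the sides it was 2.93 ± 0.20, a 7.60-fold difference. Ttr was read from 10 spots of 1 probe, whose SD within an array was 0.036, 0.032 and 0.036 in the same order, so the arrays did not overlap spot by spot. In such pooled tissue, fewer cells of a type and less RNA per cell cannot be told apart.

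Sostdc1, a secreted antagonist of BMP and Wnt signalling, had log2 signals of 5.51 on the contralateral, 8.40 on the ipsilateral and 7.48 on the control array. It followed the same order as Ttr. Its log2 ratio was -1.98 ± 0.21 on the contralateral side, 0.92 ± 0.20 on the ipsilateral side and 2.89 ± 0.21 between the sides, which is 7.43-fold. The ratio between the sides differed from that of Ttr by -0.03, less than the scanner error of 0.30 of this difference. Sostdc1 was read from 1 spot.

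Folr1 encodes folate receptor alpha, by which the epithelium moves folate from blood into cerebrospinal fluid. It had log2 signals of 5.49, 7.28 and 6.36 in the contralateral, ipsilateral and control samples. Its ratios were -0.87 ± 0.21 contralaterally and 0.93 ± 0.21 ipsilaterally, neither past the threshold, while the ratio between the sides was 1.80 ± 0.21, or 3.47-fold. Under the 12 settings the contralateral ratio was -1.02 to -0.41, past the threshold at its lowest. Folr1 thus kept the order of Ttr with a smaller difference, by -1.13 ± 0.30 between the sides.

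Kl encodes alpha-klotho, a membrane protein that acts as co-receptor for FGF23 and is also shed into cerebrospinal fluid. Its log2 signals were 2.86 on the contralateral, 4.85 on the ipsilateral and 4.39 on the control array, and only the contralateral one of these was not well above background. A bound is given for such a probe, in which the brighter array is divided by the lowest signal that was well above background on the dimmer array or by the probe's own signal, whichever was higher. By this bound, Kl was at least 2.31-fold lower on the contralateral side than in the control group and at least 3.16-fold lower than on the ipsilateral side. The bound holds for the signals as scaled here, since with normexp and with 50 added to the signal the computed log2 ratio to the control group was only -0.15 and -0.31 and that between the sides 0.63 and 0.46, within the threshold. Where it was measured on both arrays, the ipsilateral side was above the control group by 0.45 ± 0.30.

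Aqp1 encodes aquaporin 1, the water channel of the apical membrane of this epithelium. Its log2 signals were 6.88, 8.09 and 7.42 in the contralateral, ipsilateral and control samples, and its ratios were -0.55 ± 0.21 on the contralateral side, 0.66 ± 0.21 on the ipsilateral side and 1.21 ± 0.21 between the sides. It was read by 2 probes, which had the same order of the arrays but not the same size. The probe with 9 spots had ratios of -0.30, 0.67 and 0.96, and the probe with 2 spots had -0.80, 0.65 and 1.45. The call of Aqp1 between the sides thus came from the average with the probe of 2 spots.

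Slc4a5 encodes a sodium bicarbonate cotransporter of the apical membrane. It had another order, with log2 signals of 3.66 on the contralateral, 4.57 on the ipsilateral and 5.78 on the control array, so that both sides of the MCAO group were below the control group. Its ratios to the control group were -2.12 ± 0.30 and -1.20 ± 0.26, which are 4.34-fold and 2.30-fold lower, and the ratio between the sides was 0.92 ± 0.33. Both ratios to the control group were within the threshold with normexp, at -0.55 and -0.16, and with 50 added to the signal, at -0.74 and -0.51. The ipsilateral ratio differed from that of Ttr by -2.39 ± 0.33, although the contralateral ratios of these genes differed by only -0.38 ± 0.36.

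Clic6 and Enpp2 were likewise lowest on the contralateral side and highest in the control group, without reaching the threshold. Clic6, a member of the chloride intracellular channel family, had log2 signals of 3.70, 3.94 and 4.25 in the contralateral, ipsilateral and control samples. The lowest signals that were well above background on these arrays were 3.19, 3.63 and 3.12, so Clic6 was dim. Its contralateral ratio was -0.55 ± 0.34, while the ipsilateral ratio of -0.31 ± 0.37 and the ratio between the sides of 0.24 ± 0.41 were within the scanner error. Enpp2 encodes autotaxin, the secreted enzyme that makes lysophosphatidic acid, and it is also expressed by oligodendrocytes. Its log2 signals were 10.04, 10.57 and 10.63 in the same order, with ratios of -0.60 ± 0.20, -0.06 ± 0.20 and 0.53 ± 0.20.

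Otx2 encodes a homeodomain transcription factor that the choroid plexus epithelium needs for its development and maintenance. Its log2 signals of 9.13, 9.46 and 9.16 in the contralateral, ipsilateral and control samples were nearly level, with ratios of -0.02 ± 0.20, 0.30 ± 0.20 and 0.33 ± 0.20. Its 2 probes differed in sign on the contralateral side, at -0.18 and 0.13, and each of these was within the scanner error. The part of cells of the cerebellar cortex in the signal of Otx2 was not tested.

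Prlr encodes the prolactin receptor, and its 2 probes, which match different transcripts, went in opposite directions. The probe for transcript NM_001034111 had log2 signals of 1.45, 3.65 and 3.91 in the contralateral, ipsilateral and control samples. It was well above background on the control array only, at least 1.65-fold higher there than on the contralateral array. Its ipsilateral ratio to the control group, -0.26 ± 0.49, was within the scanner error. The probe for transcript NM_012630 had 4.50, 3.67 and 1.69 and was well above background on the contralateral array only, at least 2.60-fold above the control array and at least 1.78-fold above the ipsilateral array. The averaged ratios of Prlr, 0.17 ± 0.99 on the contralateral side, 0.86 ± 0.75 on the ipsilateral side and 0.68 ± 0.85 between the sides, describe neither probe.

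**Figure D1:**
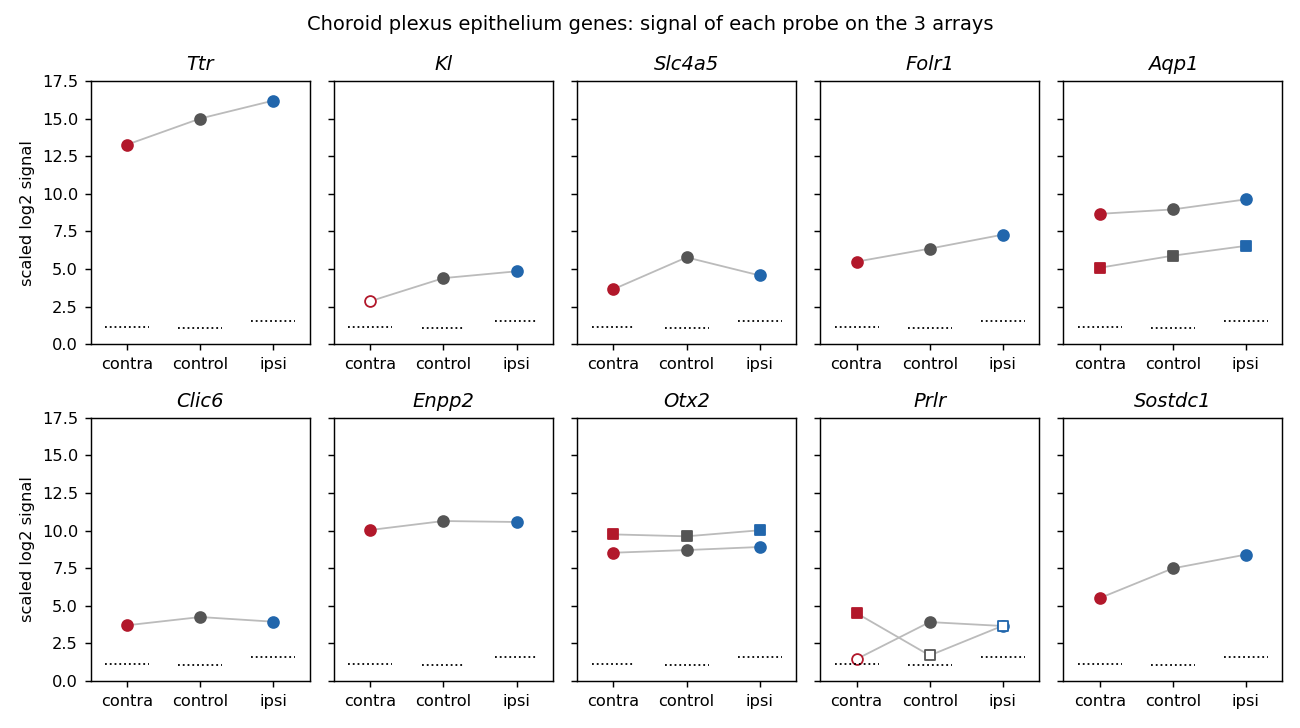
Scaled log2 signal (y axis) of every probe of the 10 genes on the contralateral, control and ipsilateral arrays (x axis). Circles and squares are different probes of a gene, open symbols are not well above background, and dotted lines are the median of the negative control spots; Ttr goes from 13.27 on the contralateral to 16.20 on the ipsilateral array, Slc4a5 is highest on the control array, and the 2 probes of Prlr cross.

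Over the 10 genes, the contralateral ratio to the control group had a median of -0.73 on the log2 scale, against 0.04 over all 38973 genes and 0.01 over the 22085 fully detected genes. None of the 10 genes was above 1 and 4 were below -1, namely Ttr, Kl, Slc4a5 and Sostdc1. With normexp and with 50 added 2 were below -1, without Kl and Slc4a5, and by the brightest probe of each gene 1 was above 1. Of all genes, 4.7% were above 1 and 6.48% below -1, and of the fully detected genes, 1.41% and 0.851%. Since the genes were chosen by these ratios, nothing is read from the difference. Below 0 were 9 genes, with Prlr as the exception, while 55.4% of all genes were above 0.

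On the ipsilateral side the median over the 10 genes was 0.56, against 0.13 over all genes and 0.03 over the fully detected genes. Ttr was the gene above 1 and Slc4a5 the gene below -1, and 7 of the 10 were above 0, as were 65.2% of all genes. Ttr was at 0.66 without scaling and 0.94 with spike-in probes, and Slc4a5 at -0.16 with normexp and -0.51 with 50 added to the signal, so that neither call held under all settings. The median of the 10 genes was 0.023 without scaling. The shares of all genes were 13.4% above 1 and 3.14% below -1, and among the fully detected genes, 3.1% and 0.797%. The ipsilateral array was the dimmest of the 3, with a 75th percentile of 1614 against 2103 on the contralateral and 2336 on the control array. After scaling, the 308 negative control spots, whose probes are made to bind no transcript, were brighter by 0.51 (median log2 ratio) on the ipsilateral than on the control array, and by 0.06 on the contralateral than on the control array. The part of this offset in the ratios of the 10 genes was not tested.

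Between the sides, the 10 genes had a median log2 ratio of 1.06, against 0.11 over all genes and 0.01 over the fully detected genes. All 8 fully detected genes of the group had a ratio above 0, and 4 of them above 1. Kl was higher on the ipsilateral side by its bound. Prlr was higher by the average of its probes only, since the probe for NM_012630 was lower there. Above 0 were 65.4% of all genes and 53.0% of the fully detected genes. Without scaling and after quantile normalization 8 of the 10 were higher on the ipsilateral side. The genes above 1 were Ttr, Sostdc1, Kl, Folr1 and Aqp1, and none was below -1. The lowest ratio under the settings was 0.83 for Aqp1 and 0.46 for Kl, and it was above 1 for Ttr, Sostdc1 and Folr1. Of all genes, 13.4% were above 1 and 1.85% below -1, and of the fully detected genes, 1.54% and 0.217%. In the order of these 22085 genes from the largest ratio, Ttr was the 3rd and Sostdc1 the 4th, Folr1 was at place 34, Aqp1 at 181, Slc4a5 at 439, Enpp2 at 1349, Otx2 at 2621 and Clic6 at 3591. The difference between the sides was largest for Ttr and Sostdc1 among the 10 genes and lay within the scanner error for Clic6 and for the probe average of Prlr.

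The share of higher genes among all genes past the threshold depended on the scaling. It was 42.1% on the contralateral side, 81.0% on the ipsilateral side and 87.8% between the sides. Without scaling these shares were 31.3%, 43.9% and 71.0%, and after quantile normalization 51.1%, 54.1% and 53.9%. With normexp the contralateral share was 58.5%, and with spike-in probes the ipsilateral share was 67.0%. With 50 added to the signal the ipsilateral share was 64.1% and that between the sides 57.8%. Without scaling the median of all genes was -0.11 on the contralateral side, -0.40 on the ipsilateral side and -0.28 between the sides. Relative to the median of the fully detected genes, the median of the 10 genes was -0.75 to -0.40 on the contralateral side, 0.19 to 0.53 on the ipsilateral side and 0.48 to 1.05 between the sides under the 12 settings.

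The SD of the log2 ratios of the 10 genes was 0.81 on the contralateral side, 0.73 on the ipsilateral side and 1.004 between the sides, while over all 38973 genes it was 0.69, 0.78 and 0.74 in the same order. Over the 8 fully detected genes of the group it was 0.78, 0.80 and 1.08, and over all 22085 fully detected genes 0.35, 0.40 and 0.30. Each contralateral and ipsilateral ratio uses the same control array and both sides came from the same rats, so these ratios are given side by side. By sign, 6 of the 10 genes (Ttr, Sostdc1, Folr1, Kl, Aqp1 and Otx2) were lower on the contralateral and higher on the ipsilateral side. This is 60%, against 17.2% of all genes and 13.3% of the fully detected genes. Without scaling, 5 of the 10 were above 0 on the ipsilateral side. The lowest ipsilateral ratio under the settings was -0.08 for Kl and -0.23 for Otx2. Otx2 was lower on the contralateral side by less than the scanner error, and above 0 there in 2 of 12 settings. Lower on both sides were Slc4a5, Clic6 and Enpp2, which is 30%, against 27.4% of all genes and 34.3% of the fully detected genes, and Prlr was above the control group on both sides by the average of its probes. Set against the ratio of Ttr between the sides, Aqp1 was -1.72 ± 0.30, Slc4a5 -2.01 ± 0.39, Enpp2 -2.39 ± 0.29, Otx2 -2.60 ± 0.29 and Clic6 -2.69 ± 0.46 away from it. Kl is left out here, since its contralateral signal gives only a bound. Clic6 was near background on every array, and the part of this in its distance from Ttr was not tested.

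**Figure D2:**
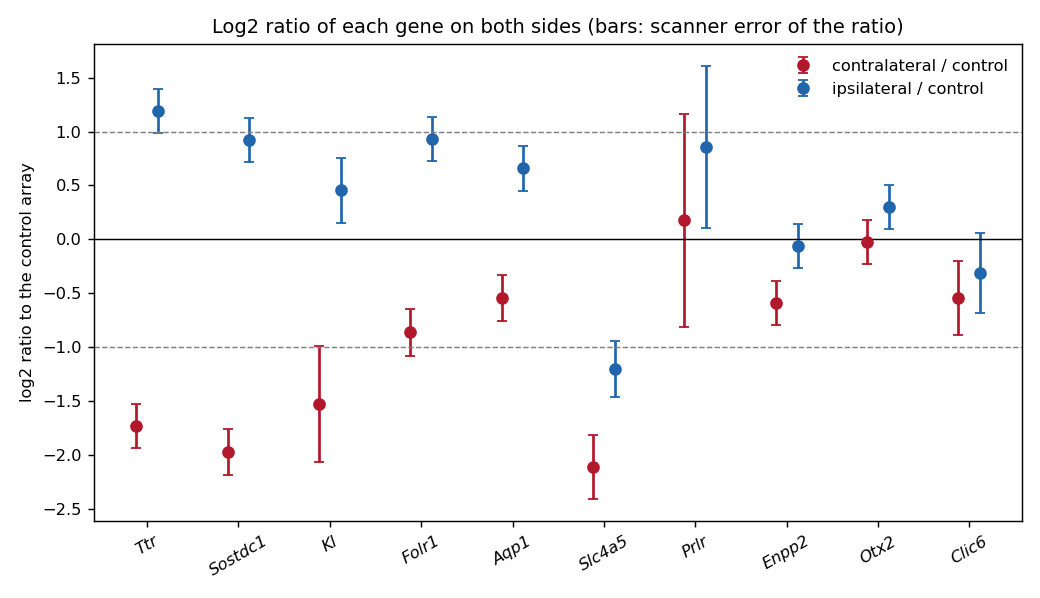
Log2 ratio to the control array (y axis) of the 10 genes on the contralateral (red) and ipsilateral side (blue), ordered by the ratio between the sides, with the scanner error as bars and dashed lines at 1 and -1. The contralateral ratio is below the ipsilateral ratio for every gene, with the probes of Prlr averaged, from -1.73 and 1.19 for Ttr to -0.55 and -0.31 for Clic6; for Clic6, Otx2 and Prlr this order turned with some of the processing settings.

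The summed scaled signal of the 10 genes is mostly that of Ttr. On the log2 scale the sum was 13.52 on the contralateral, 16.26 on the ipsilateral and 15.12 on the control array. Without Ttr it was 10.86, 11.58 and 11.39. The order of the arrays was the same without Ttr, with a log2 ratio between the sides of 0.72 in place of 2.74. The brightest of the remaining genes were Enpp2, which was highest in the control group, and Otx2, which was nearly level.

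Promoter windows from RefSeq, assembly GRCr8, were found for 5 of the 10 genes, namely Ttr, Kl, Slc4a5, Aqp1 and Prlr, the last with 2 windows. Each window holds 250 bases before and 50 after the transcription start. Windows of 3 genes are shown because Kl and Aqp1 followed the order of Ttr while Slc4a5 was below the control group on both sides. They lie at chr12:5325753-5326052 (Kl), chr4:117283044-117283343 (Slc4a5) and chr4:85812534-85812833 (Aqp1), all on the + strand. Capitals mark matches, on either strand, to the OTX2 core TAATCC, the TATA box TATAAA and the CCAAT box CCAAT.
Kl: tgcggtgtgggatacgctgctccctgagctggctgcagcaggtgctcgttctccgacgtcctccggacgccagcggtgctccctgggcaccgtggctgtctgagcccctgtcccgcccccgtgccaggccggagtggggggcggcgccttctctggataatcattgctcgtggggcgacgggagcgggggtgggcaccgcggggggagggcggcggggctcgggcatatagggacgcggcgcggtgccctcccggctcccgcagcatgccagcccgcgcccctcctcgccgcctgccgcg
Slc4a5: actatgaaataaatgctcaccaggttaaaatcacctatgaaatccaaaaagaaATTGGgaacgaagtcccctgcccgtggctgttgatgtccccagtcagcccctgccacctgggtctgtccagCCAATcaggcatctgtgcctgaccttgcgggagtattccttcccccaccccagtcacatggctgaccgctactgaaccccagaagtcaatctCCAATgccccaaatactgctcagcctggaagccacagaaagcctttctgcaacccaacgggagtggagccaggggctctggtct
Aqp1: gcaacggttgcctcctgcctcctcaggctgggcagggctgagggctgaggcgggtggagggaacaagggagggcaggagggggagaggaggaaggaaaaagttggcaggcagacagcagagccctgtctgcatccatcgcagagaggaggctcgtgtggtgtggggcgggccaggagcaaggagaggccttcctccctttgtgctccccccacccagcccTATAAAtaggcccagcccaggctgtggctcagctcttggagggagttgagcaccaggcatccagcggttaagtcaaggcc
TAATCC was in none of the 6 windows and in 7.17% of all 33469 promoter windows. TATAAA was in 1 of the 6 windows, that of Aqp1 from base 221, and in 14.2% of all. CCAAT was in 2 of the 6, with 3 matches in Slc4a5 and 1 in Ttr, and in 37.5% of all. Kl had no match to any of these motifs. A match is a description of the letters in this window.

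Other genes of the choroid plexus were compared from a list of 45, which shares none with the 10 genes. Of these, 40 were matched to a probe and 31 were fully detected, while Slc13a4, Wfikkn2, F5, Rdh5 and Cdhr4 had no matched probe. Over the 40 genes, the median log2 ratio was -0.07 on the contralateral side, 0.17 on the ipsilateral side and 0.36 between the sides. Over the 31 genes it was -0.09, 0.07 and 0.23. Between the sides 33 of the 40 were above 0 and 7 above 1, where 65.4% and 13.4% of all genes were. Of the 31, 24 were above 0 and Trpv4 was above 1, beside 53.0% and 1.54% of the fully detected genes. Without scaling the median of the 40 genes between the sides was -0.023 and on the ipsilateral side -0.36, and relative to the fully detected genes the median between the sides was 0.34 to 0.35 under 6 scalings and 0.16 to 0.35 under all 12 settings. The medians of the 40 genes were nearer to those of all genes than the medians of the 10 genes were.

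Among the fully detected genes of this list, the channels Trpv4 and Kcnj13 differed most between the sides. Trpv4, a calcium-permeable channel that responds to cell swelling, had log2 signals of 6.04, 7.19 and 6.35 in the contralateral, ipsilateral and control samples and ratios of -0.31, 0.84 and 1.15. Kcnj13, a potassium channel of the apical membrane, had ratios of -0.67 on the contralateral side, 0.21 on the ipsilateral side and 0.89 between the sides. Kcne2, a potassium channel subunit, was at -0.21, 0.39 and 0.60 in the same order. Krt8, a keratin of simple epithelia, was at -0.54, 0.14 and 0.68. By sign these were lower on the contralateral and higher on the ipsilateral side, although the contralateral ratio of Kcne2 and the ipsilateral ratio of Krt8 were within the scanner error. The same signs were found for 14 of the 40 genes, which is 35%, against 17.2% of all genes and 13.3% of the fully detected genes.

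Other genes of the list had the order of Slc4a5. Igfbp2, a binding protein of insulin-like growth factors, had log2 signals of 11.01, 11.70 and 12.50 and ratios of -1.50 on the contralateral side, -0.80 on the ipsilateral side and 0.69 between the sides. Igf2 was at -0.89, -0.54 and 0.34, and Bst2 at -0.94, -0.59 and 0.35. Igf2 is made by leptomeningeal cells too and stands in both lists. Lower on both sides were 11 of the 40 genes, or 27.5%, against 27.4% of all genes and 34.3% of the fully detected genes.

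A further set was above the control group on both sides. Lbp encodes the lipopolysaccharide-binding protein, an acute phase protein, and was not well above background on the control array. It was at least 3.87-fold higher contralaterally and at least 8.55-fold higher ipsilaterally. Cldn1, a claudin of tight junctions, had ratios of 0.77, 1.29 and 0.52, and Cp, the copper-carrying ferroxidase ceruloplasmin, had 0.54, 0.91 and 0.37. Car12, a membrane carbonic anhydrase, was higher on the ipsilateral side alone, the only array on which it was well above background, at least 2.79-fold above the control array and at least 2.66-fold above the contralateral array. Abca4, a lipid transporter, was likewise well above background on the ipsilateral array only, at least 2.31-fold above the control array and at least 2.21-fold above the contralateral array, and so was the nucleoside transporter Slc28a3, at least 1.58-fold and at least 1.51-fold. These bounds hold for the signals as scaled here and were not recomputed under the other settings. After this scaling the negative control spots were brighter on the ipsilateral array by 0.51 than on the control array and by 0.46 than on the contralateral array (log2 ratio). The part of this offset in the bounds was not tested.

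The transporters Slc29a4 and Slc4a10, the channel Trpm3 and the transcription factor Lmx1a did not pass the threshold in any of the 3 comparisons. Slc29a4, a monoamine transporter and the brightest gene of the list on the contralateral and ipsilateral arrays, was at -0.27, -0.21 and 0.06. On the control array Igfbp2 was brighter. Slc4a10, a bicarbonate transporter, was at -0.14, -0.33 and -0.19, and Trpm3, a cation channel, at 0.04, -0.41 and -0.45, the smallest ratio between the sides in the list. Lmx1a, a transcription factor of the roof plate from which the hindbrain plexus arises, was at -0.12, 0.11 and 0.24. The part of cells of the cerebellar cortex in the signals of Slc29a4, Slc4a10, Trpm3 and Lmx1a was not tested. Cldn2, Tmem72 and Slc37a2 were not well above background on any array.

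**Figure D3:**
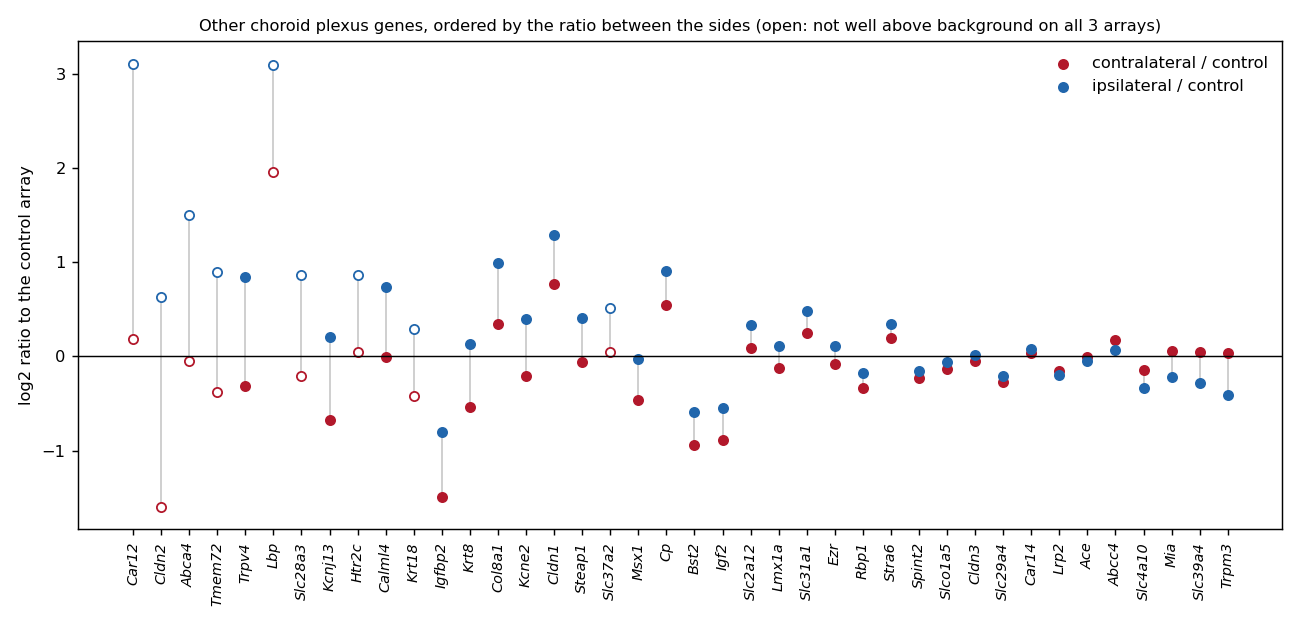
Log2 ratio to the control array (y axis) of the 40 other choroid plexus genes (x axis, ordered by the ratio between the sides), with the contralateral side in red and the ipsilateral side in blue. Open symbols are genes that were not fully detected; among the filled ones, Trpv4 and Kcnj13 have the widest gaps between the sides, and the genes at the right end, such as Trpm3, lie near 0 or lower on the ipsilateral side.

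Transporters of fluid secretion were listed apart, since cerebrospinal fluid arises from the transport of sodium, chloride and bicarbonate across this epithelium. The list held 17 genes, 7 of them also among the other choroid plexus genes. Its median log2 ratio was 0.04 on the contralateral side, 0.08 on the ipsilateral side and 0.01 between the sides. Without scaling the median was -0.11, -0.45 and -0.37 in the same order. Atp1b1, a beta subunit of the sodium pump that neurons express as well, was at 0.01 between the sides. Slc12a2, the sodium-potassium-chloride cotransporter, was at -0.10, and the anion exchanger Slc4a2 at 0.10. The genes of this list above 0.5 between the sides were Car12, Trpv4, Kcnj13 and Kcne2. Tight junction and epithelial genes numbered 12, with medians of -0.23, 0.01 and 0.15 in the same order. Among them, Epcam and Cldn2 were not well above background on any array. The lowest median between the sides under 6 scalings was -0.23. Over the 9 fully detected genes of this list the medians were -0.06, 0.01 and 0.08. Cldn11, the brightest of these and also a myelin protein, was at 0.06 between the sides.

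The partners of the 10 genes were compared in a list of 31 ligands, receptors and carriers, of which 23 were fully detected. Its median log2 ratio was 0.08 on the contralateral side, 0.13 on the ipsilateral side and 0.15 between the sides. Over the 23 genes it was 0.04, 0.05 and 0.09. Without scaling the median over the 31 genes was -0.07, -0.40 and -0.23. Rbp4, the retinol carrier bound by transthyretin and the brightest gene of the list by the average of probes, had ratios of -0.17, 0.06 and 0.23. The folate transporters Slc19a1 and Slc46a1 were at -0.03 and -0.07 between the sides, while Folr2, a folate receptor of macrophages, had ratios of 0.15, 0.62 and 0.47. Of the FGF receptors that pair with klotho, Fgfr1 was at -0.11, -0.20 and -0.09, and their ligand Fgf23 was not well above background on any array.

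Partners of the secreted and receptor proteins were mostly level between the sides as well. Lpar1, a receptor of lysophosphatidic acid, was at -0.29 on the contralateral side, -0.33 on the ipsilateral side and -0.04 between the sides. Lrp6, a Wnt co-receptor to which Sostdc1 binds, was at 0.09, -0.03 and -0.12. Among the BMP ligands that Sostdc1 can block, Bmp4 was at -0.58, -0.49 and 0.09 and Bmp7 at 0.42, 0.58 and 0.16. Bmp2 was read by 2 probes that differed. By 1 of them, well above background on the control array only, it was at least 9.91-fold lower contralaterally and at least 7.29-fold lower ipsilaterally than in the control group, and the other was at -0.24, -0.04 and 0.20. Prl, the ligand of the prolactin receptor, was not well above background on any array, and Stat5a, which acts downstream of that receptor, was at 0.10, 0.13 and 0.03. Sost, a relative of Sostdc1, was highest between the sides among the fully detected genes, at 0.79, and Fgfr2 lowest, at -0.28. The 2 probes of Fgfr2 were at -0.002 and -0.56, so their average describes neither.

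Leptomeningeal cells form the membranes over the cerebellum. All 16 genes of their list were fully detected, with median log2 ratios of -0.46 on the contralateral side, -0.21 on the ipsilateral side and 0.29 between the sides. Below the control group were 16 of 16 on the contralateral and 14 of 16 on the ipsilateral side. Of the fully detected genes, 52.4% and 55.9% were above the control group on these sides. Between the sides, 15 of 16 were higher on the ipsilateral side, as were 53.0% of the fully detected genes. Col1a1 on the contralateral side, at -1.26, was the only one past the threshold in the 3 comparisons. There 0.851% of the fully detected genes were below -1. Without scaling the median between the sides was -0.097 and 4 of 16 were higher, and relative to the fully detected genes it was 0.25 to 0.28 under 6 scalings. Col1a1, a collagen of fibroblasts, had the largest ratio between the sides, 0.65, and Islr the smallest, -0.01. Ptgds, a prostaglandin synthase and the brightest of the list, was at -0.08, 0.11 and 0.19. The summed log2 signal of the list was 16.58, 16.80 and 16.77 in the contralateral, ipsilateral and control samples, and without Ptgds 13.99, 14.35 and 14.63. The SD between these genes was 0.16 between the sides, against 1.08 among the 8 fully detected choroid plexus epithelium genes. Their part in the result for the 10 genes was not tested.

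Ependymal cells line the ventricles next to the choroid plexus, and 13 of their 16 listed markers had a probe. Their median log2 ratios were 0.21 on the contralateral side, 0.12 on the ipsilateral side and -0.16 between the sides, and over the 11 fully detected genes 0.21, -0.06 and -0.22. Foxj1, the transcription factor of motile cilia, was level at -0.02, -0.06 and -0.04. Among the fully detected genes, Enkur had the largest ratio between the sides, 0.33, and Drc12 the smallest, -0.91, while Rarres2, the brightest, was at 0.32. The summed log2 signal was 10.65, 10.69 and 10.64 in the contralateral, ipsilateral and control samples, and without Rarres2 9.76, 9.51 and 9.53. Spag6 was not well above background on any array. Between the sides, 5 of these 13 genes were above 0 and 8 below, where 65.4% of all genes were above 0. With normexp the median between the sides was 0.054 and 8 of 13 were above 0. After quantile normalization it was -0.31 and 3 of 13 were above 0.

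Otx2 is also expressed in the pineal gland, and prolactin, the ligand of Prlr, is made in the pituitary, so markers of both glands were read. Of 11 pineal genes, 4 were fully detected, among them Aanat and Asmt, enzymes of melatonin synthesis, at 0.24 and 0.23 between the sides. The pineal genes Crx, Sag, Grk1, Gngt1, Pde6b and Lhx4 were not well above background on any array. The pineal median was 0.46 between the sides and 0.28 over the 4 fully detected genes, beside 0.46 for the negative control spots, and Rom1, the brightest, was at 0.33. The summed pineal log2 signal was 8.41, 8.73 and 8.49 in the contralateral, ipsilateral and control samples. Of these 4 genes, Chrna3 was highest between the sides, at 0.65, and Asmt lowest, at 0.23. Of 9 pituitary genes, Prl and Tshb were not well above background on any array, and the median was 0.31 between the sides, but 0.04 over the 3 fully detected genes and -0.07 over all 9 without scaling or after quantile normalization. Gh1 and Cga were well above background on the control array only. There Gh1 was at least 1.51-fold above the contralateral and at least 1.11-fold above the ipsilateral array, and Cga at least 2.02-fold and at least 1.49-fold. Pomc, the brightest pituitary gene, was at 0.28, the largest of 3 fully detected genes, and Lhb at -0.01 was the smallest. The summed pituitary log2 signal was 8.93, 9.18 and 9.13, and without Pomc 6.72, 6.84 and 7.09.

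Genes of the other cells of the cerebellum and brainstem were nearly level between the sides. The median log2 ratio there was 0.05 over 11 endothelial genes, 0.01 over 12 oligodendrocyte genes, -0.08 over 12 granule cell genes, -0.02 over 11 Purkinje cell genes, 0.02 over 12 Bergmann glia genes and 0.08 over 11 genes of the brainstem and deep nuclei, of which the 6 fully detected genes had a median of -0.08. None of these lists had a gene above 1 between the sides, where 13.4% of all genes and 1.54% of the fully detected genes were. Without scaling their medians were -0.46 to -0.31, and relative to the fully detected genes they were -0.09 to 0.07 under 6 scalings. The largest and smallest ratios among fully detected genes were 0.52 for Cdh5 and -0.11 for Abcb1a in the endothelial list, 0.25 for Ermn and -0.11 for Ugt8 in the oligodendrocyte list and 0.37 for Sox9 and -0.21 for Slc1a2 in the Bergmann glia list. In neurons they were 0.11 for Zic1 and -0.17 for Zic2 among granule cell genes and 0.17 for Aldoc and -0.06 for Itpr1 among Purkinje cell genes. Sncg, at 0.38, and Slc17a6, at -0.51, were those of the brainstem and deep nuclei list. Purkinje cell and granule cell genes had an SD between genes of 0.07 and 0.08. The brightest genes of the Bergmann glia, endothelial and brainstem lists, Septin4, Slc2a1 and Nefm, were at 0.02, 0.12 and -0.16 between the sides, and the reference genes Actb and Gapdh at 0.01 and 0.05.

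Against the control group these lists were not all level. Oligodendrocyte genes, which bear on Enpp2, had a median log2 ratio of -0.22 on both the contralateral and the ipsilateral side, where Enpp2 was at -0.60 and -0.06. The endothelial list had medians of -0.11 and -0.01, Bergmann glia -0.07 and 0.01, granule cells 0.01 and -0.04, Purkinje cells 0.13 and 0.09, and the brainstem and deep nuclei 0.07 and 0.13. The part of oligodendrocytes in the values of Enpp2 was not tested. Pineal and pituitary genes had medians of -0.01 and -0.14 on the contralateral and 0.44 and 0.13 on the ipsilateral side. Over the 4 fully detected pineal genes the medians were -0.20 and 0.17. Without scaling the ipsilateral median of the pineal list was -0.09.

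**Figure D4:**
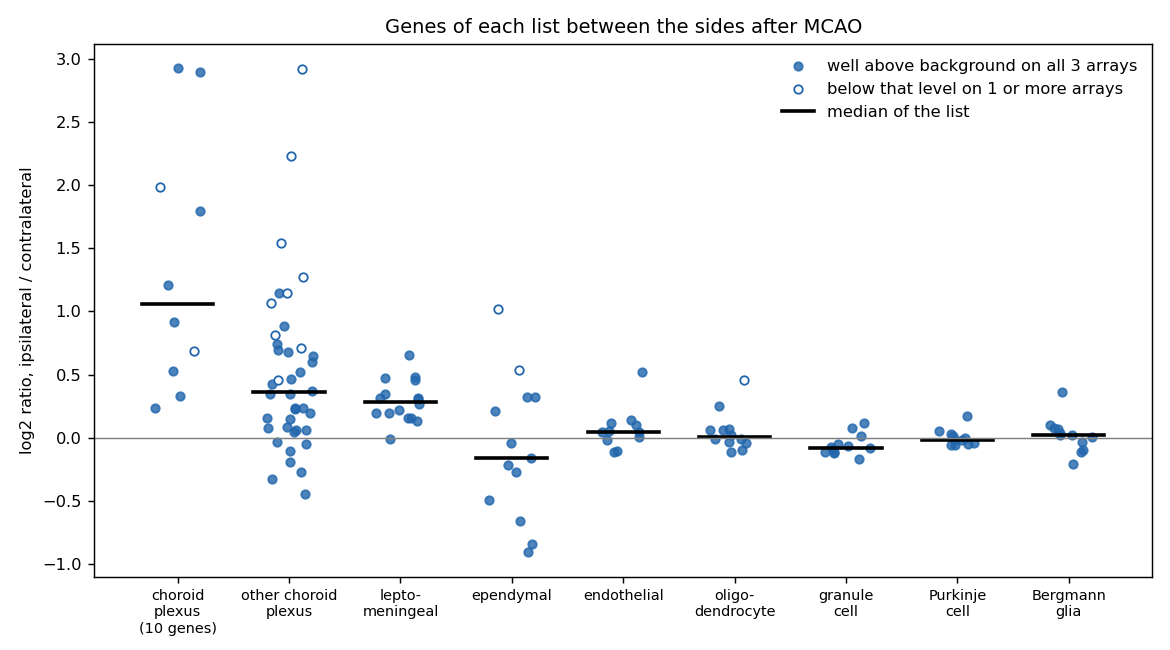
Log2 ratio of the ipsilateral over the contralateral array (y axis) for the genes of 9 lists (x axis), with the median of each list as a black line. Filled points are fully detected genes; the medians are 1.06 for the 10 choroid plexus epithelium genes, 0.36 for the other choroid plexus genes, 0.29 for leptomeningeal genes and between -0.16 and 0.05 for the remaining lists, and without scaling the medians of the other choroid plexus and leptomeningeal genes are -0.023 and -0.097.

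The genes with a pattern most like that of Ttr were sought by the distance between their pairs of log2 ratios to the control group, over the 2 ratios and 11249 named genes that were fully detected. Sostdc1 was nearest, at a distance of 0.37, followed by Gipr, the receptor of an incretin hormone, at 0.82, and by Folr1 at 0.91. Next came Bglap, the bone matrix protein osteocalcin, at 0.95, then Spata1, Tcea3, Cdh3, 6030498E09Rikl, Ptmal1 and Igll1, the last at 1.25. Bglap had ratios of -0.83 on the contralateral side, 0.93 on the ipsilateral side and 1.75 between the sides. Gipr had -1.20, 0.56 and 1.76, with a contralateral log2 signal of 3.36, near the lowest signal well above background there, 3.19. All 10 were measured by 1 spot each. Nearest to the pair of medians of the 10 genes were Tcea3, at 0.12, Cep112, Irs3, Pclaf, Spata1, Igll1, Fgd2, Gab2, Aqp1 at 0.21 and Sox11 at 0.22. Aqp1 was thus the gene of the group that lay nearest to its median. For each of these 10 neighbours the scanner error of the contralateral ratio was larger than the distance. Pclaf, Gab2, Cep112, Irs3 and Igll1 had contralateral log2 signals of 3.20 to 3.59, near the same lowest signal.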

How the data were processed

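Cerebellar cortex of the MCAO group (contralateral and ipsilateral) and of the control group was measured with 1 array per group on 1 slide. The authors deposited the intensity of each spot from Agilent Feature Extraction 12.1.0.3, background-subtracted and not scaled between arrays, and a table in which these values are multiplied by 1 factor per array (1.12, 1.45 and 1.04 for the contralateral, ipsilateral and control arrays). Scale and direction of that table are known from this match, and the study's methods name a normalization to control samples on the chip without saying whether the factors are its result.

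Log2 processed intensities were shifted to a common 75th percentile over 58717 spots without the control spots. Outlier spots (759) were left out. Spots were averaged per probe and probes per gene, named through 17622 of 39957 accessions that matched the RefSeq annotation of GRCr8 and by accession otherwise. A fully detected gene had all its probes well above background on each array. No spot was saturated. With 1 array per group no test was possible, and the number of arrays limits the precision. The error of a ratio combines the errors per spot of both arrays without reduction for the number of spots. The calling threshold, a log2 ratio of 1 in either direction, was that of the study's methods. The statistics were tested on simulated data.

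The members and lists were chosen with earlier results of these data known. Named were the 10 genes, Actb and Gapdh, the 10 genes nearest to Ttr and to the median of the group, from each list the brightest gene and those with the largest and smallest ipsilateral over contralateral ratio among fully detected genes, and any gene of the secretion, partner and other choroid plexus lists. Further genes (Foxj1, Epcam, Gh1, Cga and those named as not well above background) were chosen after their values were seen. Values were recomputed in 11 other ways: quantile normalization, scaling to 8 spike-in probes, scaling to the median, no scaling, normexp on median signals (offset 50), an addition of 50 to the signal, the deposited table, 2 filters that drop dim probes, the brightest probe of each gene, and retention of outlier spots. Python 3.11.15, numpy 2.4.6, pandas 2.3.3, scipy 1.17.1, matplotlib 3.10.9, R 4.3.3 and limma 3.58.1 were used.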

Additional observations from a re-analysis of the deposited data

Results flagged for a closer look

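For 5 of the 10 genes, the contralateral sample lay below and the ipsilateral sample above the control group, with a log2 ratio between the sides above 1. Ttr, the transthyretin gene, had a difference of 2.93 between the sides, and Sostdc1, the BMP and Wnt antagonist, one of 2.89. Kl, the klotho gene, was at least 3.16-fold higher on the ipsilateral side, a bound that stands in place of the computed difference of 1.99 because its contralateral signal was not well above background. This computed difference was 0.46 with 50 added to the signal, and without scaling Kl was not above the control group on the ipsilateral side. Folr1, the folate receptor, had 1.80, and Aqp1, the water channel, 1.21, with a lowest value of 0.83 under the other settings. Of all genes, 13.4% were above 1 between the sides, and of the fully detected genes 1.54%, while 17.2% and 13.3% were lower on the contralateral and higher on the ipsilateral side. Each of these shares is for 1 criterion alone, while the 5 genes met both. Each side is 1 sample, and the difference was not tested.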

How the results depend on the processing

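Under all 12 settings Ttr, Sostdc1, Folr1, Aqp1, Slc4a5 and Enpp2 were higher on the ipsilateral than on the contralateral side, with log2 ratios of 2.54 to 2.93 for Ttr, 2.02 to 2.89 for Sostdc1, 1.12 to 1.80 for Folr1, 0.83 to 1.21 for Aqp1, 0.24 to 0.92 for Slc4a5 and 0.15 to 0.54 for Enpp2. Kl, for which only a bound is known between the sides, had computed ratios of 0.46 to 1.99 in the 11 settings that kept it. Clic6 was higher in 10 of 12, at -0.30 to 0.32, Otx2 in 11 of 12, at -0.05 to 0.33, and Prlr in 9 of 11, at -0.83 to 0.68. Ttr, Sostdc1, Folr1 and Aqp1 were above the control group on the ipsilateral side in all 12 settings, and Kl in 10 of 11. Over the 10 genes and 3 comparisons, 266 of 324 values moved by less than the scanner error and 58 by more. The deposited table, scaling to the median, outlier spots kept and the 2 filters on dim probes moved none by more.

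Without scaling, the median of the 10 genes was 0.68 between the sides and 0.023 on the ipsilateral side, 0 were above 1 on the ipsilateral side, and the median of the other choroid plexus genes was -0.023 between the sides and -0.36 on the ipsilateral side. With spike-in probes the ipsilateral median was 0.30, with 0 genes above 1, and that of the other choroid plexus genes -0.080. After quantile normalization the ipsilateral median was 0.33. With normexp the median was -0.35 on the contralateral side and 0.56 between the sides, the SD between the genes 0.60 contralaterally and 0.41 ipsilaterally, and 3 genes were above 1 between the sides, with 2 contralaterally and 0 ipsilaterally below -1. With 50 added to the signal the medians were -0.40, 0.22 and 0.49 in the order contralateral, ipsilateral and between the sides, the SD 0.57 and 0.49 on the contralateral and ipsilateral side, and 3 genes were above 1 between the sides, with 2 contralaterally and 0 ipsilaterally below -1. Both of these settings shrink the ratios of dim genes by their construction. By the brightest probe, which for Prlr is that of NM_012630, the SD was 1.44 on the contralateral side, with 1 gene above 1 there and 2 on the ipsilateral side. The cause of the other changes was not tested.

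Genes past the threshold on the contralateral side numbered 1833 above 1 and 2526 below -1, against 72 and 51 with normexp, 89 and 93 with 50 added, and 1043 and 1342 among probes well above background on at least 1 array. On the ipsilateral side they were 5217 and 1223, against 167 and 24 with normexp, 143 and 80 with 50 added, 2618 and 3352 without scaling, 2865 and 2434 after quantile normalization, 1903 below -1 with spike-in probes and 2469 above 1 among probes well above background on at least 1 array. Between the sides they were 5217 and 722, against 39 and 7, 59 and 43, 3459 and 1414, and 2521 and 2157 in the first 4 of these settings, and 2281 and 469 in the last. Among probes well above background on all 3 arrays the counts were 346 and 202, 762 and 192, and 375 and 52. No paired analysis was possible because each group has 1 array. Signal over background limits Kl and Prlr to bounds.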
